A study of Homo sapiens with 12 samples.

Results

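MPC1 KO was compared with Empty Vector (EV) in MV4-11 cells by small RNA sequencing. Of the 1204 miRNAs counted, the 659 that passed a filter on low counts over all 12 libraries of the series were taken. With the 6 MV4-11 libraries alone 581 passed the filter, and 25 of the 659 had at most 3 counts in every MV4-11 library. The libraries used were 3 of MV4-11 EV and 3 of MV4-11 MPC1 KO, 6 of the 12 in the series, and the others came from Molm-14 cells. MV4-11 is a human acute myeloid leukemia (AML) line that carries the FLT3 internal tandem duplication, which both groups therefore share. In MPC1 KO cells, MPC1, a subunit of the mitochondrial pyruvate carrier, was deleted by CRISPR/Cas9 from a lentiviral vector with a GFP marker and a single guide, and EV cells received the vector without targeting. No source used here says whether the cells were a single clone or whether the libraries of a group were separate cultures, so p-values measure the spread between these libraries, which may be technical. Small RNA libraries do not measure the MPC1 transcript, so the deletion was not checked here. Libraries are written EV 1 to EV 3 and KO 1 to KO 3 by replicate number, and are those of MV4-11 unless Molm-14 is named.

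A miRNA is cut from a hairpin in a longer primary transcript, and either side of the hairpin, the 5p or the 3p arm, can give a mature miRNA. Bases near the 5′ end, the seed, pair with target mRNAs, so miRNAs that share a seed can bind the same sites. Hairpins that lie close together on the same strand can be made from a shared transcript, and the miR-99b, let-7e and miR-125a hairpins are a known example.

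The mature sequences that the comparison turned on were taken from the RefSeq table for GRCh38.p14, 5′ to 3′, with the seed (bases 2 to 8) in capitals. The first set holds the miRNAs of the miR-99b, let-7e and miR-125a hairpins that rose, each with relatives of the same seed, since relatives of the same seed did not move together.
miR-99b-5p: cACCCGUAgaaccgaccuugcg
miR-100-5p: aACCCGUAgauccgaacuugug
miR-99a-5p: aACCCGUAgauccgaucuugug
let-7e-5p: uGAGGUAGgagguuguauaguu
let-7g-5p: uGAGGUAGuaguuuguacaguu
let-7a-5p: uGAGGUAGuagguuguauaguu
miR-125a-5p: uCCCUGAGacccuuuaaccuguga
miR-125b-5p: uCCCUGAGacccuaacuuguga
The second set holds both arms of the hairpins that fell or rose together, other miRNAs that fell, and miR-21-5p, the most abundant miRNA.
miR-582-5p: uUACAGUUguucaaccaguuacu
miR-582-3p: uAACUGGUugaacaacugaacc
miR-642a-5p: gUCCCUCUccaaaugugucuug
miR-642a-3p: aGACACAUuuggagagggaacc
miR-183-5p: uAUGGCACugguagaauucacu
miR-618: aAACUCUAcuuguccuucugagu
miR-21-5p: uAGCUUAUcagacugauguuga
Counted from 1 at the 5′ end, miR-99b-5p and miR-100-5p differed at 4 of 22 positions (C1A, A11U, C16A and C21U, miR-99b-5p first), none of them in the seed. let-7e-5p differed from let-7g-5p at 3 positions (U9G, U12G and C18U, let-7g-5p first) and from let-7a-5p at 1 (U9G, let-7a-5p first).

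Total counts were between 3915329 and 8683456 in the 6 libraries, and the first EV library was the deepest. Replicates of a group differed by more than sampling noise, so none was a copy of another. Levels are given as CPM, counts scaled to a common library size with TMM factors. Of the 659 miRNAs tested, 20 passed an adjusted p of 0.05 in edgeR's quasi-likelihood test (3.03% of those tested). Of these, 13 were higher in MPC1 KO (1.97%) and 7 were lower (1.06%). The split depended on the scaling: it was 10 higher and 15 lower with upper-quartile factors, which moved every log2 fold change by -0.11, and 20 higher and 6 lower with total counts. The number called was 12 without KO 1, 38 without Molm-14 EV 2 (32 higher) and 34 without Molm-14 EV 3 (29 higher). The Molm-14 libraries enter the fit of all 12, where they bear on the filter, the scaling and the spread, and which of these moved the counts was not tested. The number lower was 4 without EV 2, 12 without EV 3, 2 without KO 1 and 3 without KO 3.

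**Figure D1:**
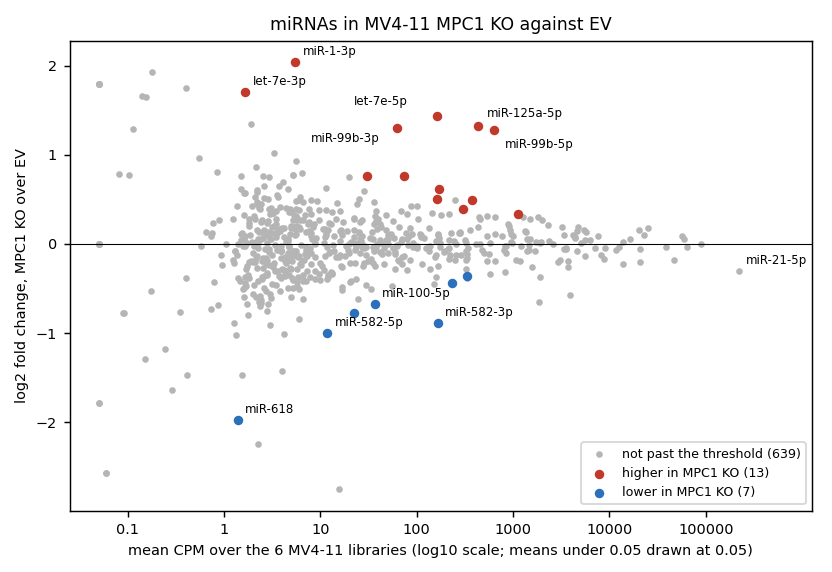
Mean CPM over the 6 MV4-11 libraries (x axis, log10 scale) and log2 fold change of MPC1 KO over EV (y axis) for the 659 miRNAs tested, with 13 higher in red and 7 lower in blue. The 5 red points of the miR-99b, let-7e and miR-125a hairpins lie at log2 fold changes from 1.28 to 1.71, and miR-21-5p lies farthest to the right at -0.30.

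The clearest rise was that of the hairpins MIR99B, MIRLET7E and MIR125A. They lie on chromosome 19 of GRCh38, plus strand, at 51692612 to 51692681, 51692786 to 51692864 and 51693254 to 51693339, the first and second in an intron of SPACA6 and MIR125A over an exon of it, with exons of SPACA6-AS1 opposite. let-7 miRNAs repress growth genes, and miR-125 miRNAs are known from blood stem cells. miR-99b-5p was at 371, 364 and 369 CPM in the EV libraries and at 884, 901 and 901 CPM in MPC1 KO. let-7e-5p was at 89.2, 85.6 and 90.7 CPM in EV and at 243, 215 and 260 CPM in MPC1 KO. miR-125a-5p was at 293, 212 and 240 CPM in EV and at 622, 619 and 620 CPM in MPC1 KO. Every MPC1 KO library was above every EV library for all 3, and the gap was wider than the spread within either group. The log2 fold change was 1.28 (SE 0.09, adjusted p = 2.28e-10) for miR-99b-5p, 1.43 (SE 0.11, adjusted p = 5.55e-10) for let-7e-5p and 1.32 (SE 0.13, adjusted p = 8.16e-08) for miR-125a-5p by edgeR. The other arms followed: miR-99b-3p went from 35.7, 32.8 and 40.7 CPM to 95.4, 90.6 and 82.6 CPM, a log2 fold change of 1.30 (SE 0.13, adjusted p = 7.31e-08 by edgeR). The rarer let-7e-3p had 7, 4 and 2 counts in EV and 17, 14 and 12 counts in MPC1 KO (log2 fold change 1.71, SE 0.41, adjusted p = 0.0130 by edgeR). It did not pass when EV 1, EV 3 or KO 1 was left out (adjusted p up to 0.0924 by edgeR), nor with edgeR on the 6 MV4-11 libraries. miR-125a-3p, the sixth arm, did not pass, at 1.02 (SE 0.32, adjusted p = 0.0894 by edgeR), although its 3 MPC1 KO libraries were above its EV libraries.

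**Figure D2:**
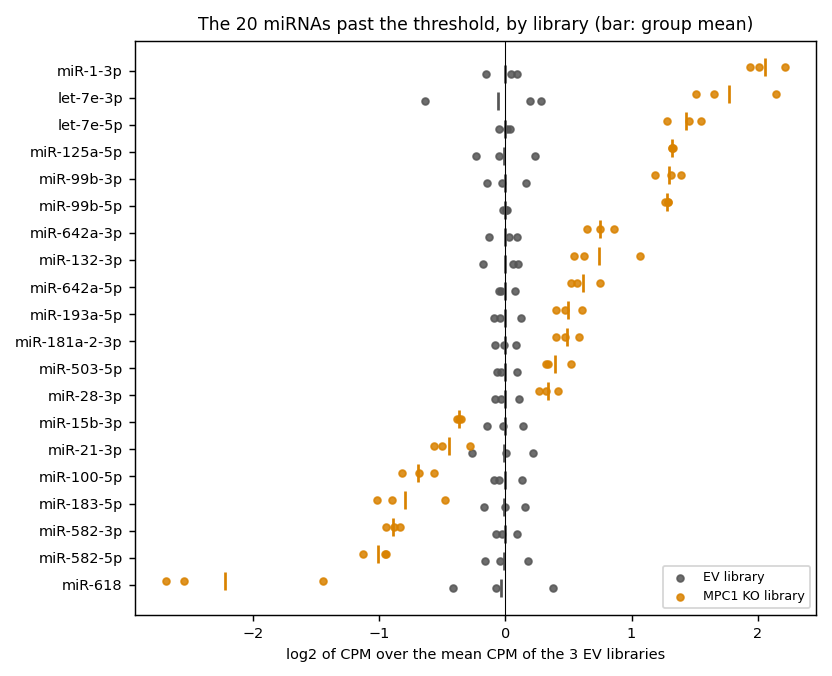
Log2 of each library's CPM over the mean CPM of the 3 EV libraries (x axis) for the 20 miRNAs past the threshold, with a point per library and a bar for the mean of each group. For miR-21-3p the lowest EV library, at 221 CPM, is just above the highest MPC1 KO library, at 219 CPM.

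The largest fitted rise was in miR-1-3p, best known from heart and skeletal muscle and present at few counts here. Its libraries held 18, 10 and 8 counts in EV and 42, 51 and 56 in MPC1 KO, and the groups did not overlap. The log2 fold change was 2.04 (SE 0.28, adjusted p = 2.35e-05 by edgeR), and its rank by mean CPM among the 659 miRNAs was 550 in EV and 332 in MPC1 KO. Its mature sequence is made from 2 hairpins, MIR1-1 on chromosome 20 and MIR1-2 on chromosome 18, which the counts do not separate. Of the other muscle miRNAs listed, miR-499a-5p was tested and had overlapping libraries (log2 fold change 0.45, SE 0.20, adjusted p = 0.284 by edgeR). miR-208b-3p was too low to test, with 6, 1 and 1 counts in EV and 1, 0 and 1 in MPC1 KO.

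Both arms of miR-642a rose. The 5p arm went from 142, 129 and 131 CPM in EV to 192, 225 and 198 CPM in MPC1 KO, and the 3p arm from 50.03, 55.7 and 58.4 CPM to 85.7, 91.8 and 99.6 CPM. The groups did not overlap for either arm, and the log2 fold changes were 0.61 (SE 0.12, adjusted p = 0.0032) and 0.76 (SE 0.13, adjusted p = 0.000324) by edgeR. The hairpin lies on chromosome 19 at 45674928 to 45675024, in an intron of GIPR, the receptor of an incretin hormone. miR-181a-2-3p, from a hairpin within MIR181A2HG, went from 310, 295 and 332 CPM to 412, 468 and 434 CPM (log2 fold change 0.49, SE 0.10, adjusted p = 0.00265 by edgeR). The miR-181 family is known from blood cell differentiation. These 3 arms, like miR-1-3p and the 4 most abundant arms of the chromosome 19 cluster, passed with each of the 12 libraries left out in turn and under every alternative that tested them.

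The other rises were smaller or rested on particular libraries. miR-132-3p, induced in activated myeloid cells and neurons, went from 23.98, 23.3 and 19.9 CPM to 34.6, 32.6 and 47.0 CPM (log2 fold change 0.76), and its adjusted p was 0.0611 by edgeR without KO 3, its highest library. miR-193a-5p went from 126, 130 and 146 CPM to 204, 177 and 187 CPM (0.50), and did not pass without EV 2 or KO 1 (adjusted p up to 0.0703 by edgeR) or with upper-quartile factors. miR-503-5p, whose family restrains the cell cycle, went from 250, 254 and 278 CPM to 327, 373 and 329 CPM (0.40), and did not pass without EV 1, EV 2 or KO 2 (adjusted p up to 0.107 by edgeR), with upper-quartile factors or with edgeR on the 6 MV4-11 libraries. miR-28-3p, from an intron of LPP, went from 958, 931 and 1060.4 CPM to 1231, 1179.9 and 1314 CPM (0.34). It did not pass in 7 of the 12 fits without a library (adjusted p up to 0.194 by edgeR), those without EV 1, EV 2, KO 1, KO 2, KO 3, Molm-14 KO 2 or Molm-14 KO 3, nor with upper-quartile factors or with DESeq2 or edgeR on the 6 MV4-11 libraries. In all 4 the MPC1 KO libraries were above the EV libraries, as they were for 68 of the 659 miRNAs (10.3%).

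Of the 7 miRNAs that fell, both arms of miR-582 were among them. miR-582-3p was at 228, 203 and 209 CPM in EV and at 116, 111 and 120 CPM in MPC1 KO, and miR-582-5p went from 15.3, 17.9 and 14.1 CPM to 8.16, 8.19 and 7.24 CPM. Neither arm overlapped between the groups. The log2 fold changes were -0.89 (SE 0.12, adjusted p = 2.2e-05) and -1.002 (SE 0.23, adjusted p = 0.0082) by edgeR, and the 5p arm did not pass without KO 1 or KO 3 (adjusted p up to 0.0611 by edgeR). The hairpin lies on chromosome 5, minus strand, at 59703606 to 59703703, in an intron of PDE4D, a cyclic AMP phosphodiesterase.

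miR-100-5p fell from 42.5, 43.7 and 49.6 CPM to 25.6, 30.6 and 28.2 CPM (log2 fold change -0.68, SE 0.14, adjusted p = 0.00316 by edgeR). It shares the seed ACCCGUA with miR-99b-5p, which rose, and the third member tested, miR-99a-5p, had overlapping libraries between 4.02 and 10.5 CPM (-0.10, adjusted p = 0.959 by edgeR). miR-183-5p, of a cluster first known from sensory organs, fell from 28.2, 25.1 and 31.6 CPM to 13.99, 20.4 and 15.2 CPM (-0.77, adjusted p = 0.00427 by edgeR) and was at an adjusted p of 0.0544 by edgeR without KO 1. miR-618 had the largest fall past the threshold, at few counts, with 14, 13 and 9 in EV and 2, 5 and 2 in MPC1 KO. Its log2 fold change was -1.98 (SE 0.44, adjusted p = 0.00718 by edgeR), and it did not pass without EV 2, KO 1 or KO 3 (adjusted p up to 0.0700 by edgeR). That value came from the fit of all 12 libraries. With the 6 MV4-11 libraries alone, miR-618 was not among the 581 miRNAs tested, so edgeR and DESeq2 gave no value for it there.

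The other 2 falls were close to the threshold. miR-15b-3p went from 339, 370 and 413 CPM to 290, 293 and 287 CPM (log2 fold change -0.37), and the partner arm, miR-15b-5p, whose family represses cell cycle and survival genes, had overlapping libraries (-0.02). miR-15b-3p did not pass in 8 of the 12 fits without a library (adjusted p up to 0.116 by edgeR), those without any MV4-11 library but EV 1 and those without Molm-14 EV 2, EV 3 or KO 1, nor with RLE factors, total counts or no filter. miR-21-3p went from 221, 310 and 266 CPM to 187, 219 and 179 CPM (-0.44). It did not pass in 9 of the 12 fits (adjusted p up to 0.227 by edgeR), those without EV 2, EV 3, KO 1, KO 3, any Molm-14 EV library, Molm-14 KO 1 or Molm-14 KO 2, nor with RLE factors, total counts, limma-voom or edgeR on the 6 MV4-11 libraries. In all 7 falls every MPC1 KO library was below every EV library, as was so for 47 of the 659 miRNAs (7.13%).

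The balance between the arms of a hairpin was asked in 133 pairs whose arms both held at least 10 counts on average. By limma, 0 of the 133 ratios of 5p to 3p counts passed an adjusted p of 0.05 (0.0% called), 7 passed an unadjusted p of 0.05, and the lowest adjusted p was 0.515. The count was also 0 under each alternative run. The log2 ratio changed by -0.78 to 0.87, with a median SE of 0.23, and even the largest, 0.87 (SE 0.33) for miR-627, did not pass (adjusted p = 0.808 by limma), so sizeable changes could be missed. In miR-99b, where both arms rose, the 5p arm held between 90.1% and 91.7% of the counts of both arms in all 6 libraries, and the change of the log2 ratio was -0.02 (SE 0.12). In miR-582, where both arms fell, the 3p arm dominated and the 5p arm held between 5.70% and 8.09% (change -0.11, SE 0.21). miR-642a changed by -0.14 (SE 0.17). The ratio of miR-15b had the lowest p and moved by 0.34 (SE 0.10, adjusted p = 0.515 by limma), as its 3p arm fell and its 5p arm did not pass. All 10 pairs with a called arm had fold changes of the same sign in both arms, against 82 of all 133 pairs (61.7%). The arms share libraries and scaling, and the 10 pairs were picked for a called change in these data, so this is a description.

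**Figure D3:**
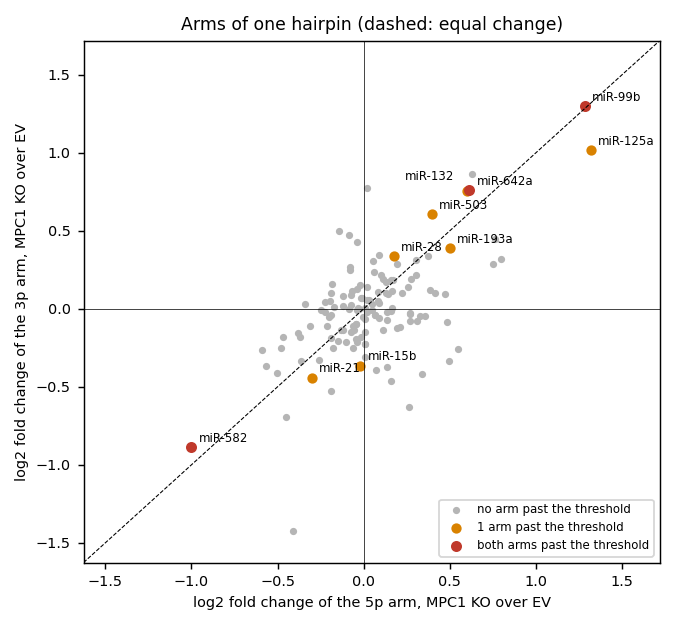
Log2 fold change of the 5p arm (x axis) and of the 3p arm (y axis), MPC1 KO over EV, for 133 hairpins, with equal change on the dashed line. miR-99b and miR-642a lie above 0 on both axes and miR-582 lies below 0 on both, each close to the line.

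Summed over hairpins within 10 kb on the same strand, 16 of 407 clusters passed (3.93%), 12 higher (2.95%) and 4 lower (0.983%). These counts depended on how miRNAs were matched to hairpins and on the scaling. The match was corrected after first results had been seen, and the first match, by name alone, gave 10 of 405 (6 higher, 4 lower). The scaling with upper-quartile factors gave 3 higher and 23 lower, RLE factors gave 7 higher and 4 lower, and the TMM factors of the miRNA table gave 10 higher and 4 lower. The number of clusters was 8 without KO 1 (5 higher) and 10 without KO 3 (7 higher), and 8 were lower without EV 3. All 10 clusters called by the first match were among the 16, and 6 passed in every fit run. The cluster of MIR99B, MIRLET7E and MIR125A went from 773, 692 and 740 CPM of the summed table to 1839, 1833 and 1858 CPM (log2 fold change 1.33, SE 0.08, adjusted p = 9.76e-12 by edgeR). The other 5 of the 6 were MIR582 (-0.88), MIR642A (0.67), MIR132 with MIR212 (0.70), MIR182 with MIR96 and MIR183 (-0.59), and the cluster whose summed member was miR-100-5p (-0.67).

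Within clusters, members did not always move alike. In the cluster of MIR182, MIR96 and MIR183, miR-182-5p was lower with miR-183-5p but did not pass (-0.62, SE 0.21, adjusted p = 0.115 by edgeR), and miR-96-5p was at 0.18 (SE 0.24). All 4 arms of MIR132 and MIR212 had positive log2 fold changes, from 0.60 to 0.87, of which miR-132-3p passed. The cluster of MIR200B, MIR200A and MIR429, miRNAs that maintain the epithelial state, passed as a sum, from 147, 153 and 141 CPM to 213, 192 and 202 CPM (0.46, SE 0.11, adjusted p = 0.0109 by edgeR). None of its members passed alone, the lowest adjusted p being 0.0742 for miR-429 by edgeR. The sum did not pass with upper-quartile factors or without KO 1 (adjusted p = 0.0725 by edgeR). MIR181A2 with MIR181B2 (0.50) and MIR193A (0.51) also passed under both matches and not with upper-quartile factors. MIR618, a cluster of 1, passed under both matches, with the dependence on libraries given above.

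**Figure D4:**
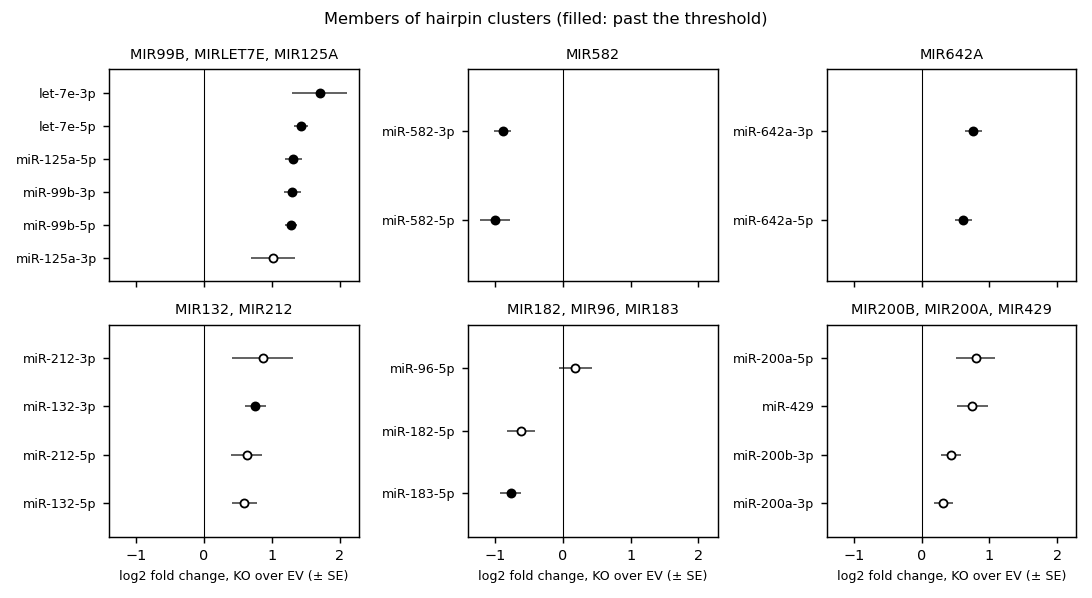
Log2 fold change of MPC1 KO over EV with its SE (x axis) for each tested miRNA of 6 clusters, filled where the miRNA passed an adjusted p of 0.05. The 6 arms of the chromosome 19 cluster lie between 1.02 and 1.71, and in the cluster of MIR182, MIR96 and MIR183 miR-96-5p lies on the other side of 0 from its neighbours.

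Summed over miRNAs with the same seed, 19 of 504 families passed (3.77%), 12 higher (2.38%) and 7 lower (1.39%). With upper-quartile factors the split was 10 higher and 9 lower, and with total counts it was 21 higher and 4 lower. The number was 12 without KO 1 and 29 without Molm-14 KO 2 (25 higher), and 22 were higher without EV 1. The number lower was 3 without EV 2, KO 1 or KO 3, 4 without KO 2, Molm-14 KO 1 or Molm-14 KO 2, and 11 without EV 3 or Molm-14 EV 2. In all, 11 families passed in every fit that gave them a value, though DESeq2 on all libraries gave none for GGAAUGU, the seed of miR-1-3p. Several of the 11 carry the seed of a miRNA called above, such as AACUGGU of miR-582-3p and GACACAU of miR-642a-3p. Such families largely repeat those results. The seed family ACCCGUA, in which miR-99b-5p rose and miR-100-5p fell, was higher as a whole, from 454, 448 and 465 CPM of the summed table to 979, 1025 and 969.8 CPM (log2 fold change 1.12, SE 0.12, adjusted p = 3.17e-07 by edgeR). CCCUGAG was higher by 1.29, and its counts were almost wholly those of miR-125a-5p, since miR-125b-5p had at most 2 in any MV4-11 library. miR-125b-5p is made at 2 loci, and how reads that match several places were counted is not given. let-7e-5p shares GAGGUAG with the let-7 family, whose most abundant members barely moved: let-7g-5p was at 0.08 (SE 0.10) and let-7i-5p at -0.04 (SE 0.09), and the family did not pass. GAGAACU, the seed of miR-146a-5p and miR-146b-5p, which restrain inflammatory signalling, was lower by 0.44 on the log2 scale (adjusted p = 0.0426 by edgeR). It did not pass in 8 of 12 fits without a library, those without EV 1, EV 2 or any KO library of either line. Nor did it pass with RLE factors, total counts or the TMM factors of the miRNA table, and neither member passed alone. miR-146b-5p, at -0.57 (adjusted p = 0.0612 by edgeR), did pass under 9 of 11 alternatives and without EV 3, and miR-146a-5p, at -0.26 (adjusted p = 0.139 by edgeR), under 1 of 11.

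The share of the library moved chiefly through miR-21-5p, an abundant miRNA of many cancers. It took 24.2%, 25.6% and 23.4% of the counts of the EV libraries and 21.5%, 21.0% and 19.9% of those of the MPC1 KO libraries, which did not overlap. This fall of 3.59 points was 72.8% of all points lost by miRNAs whose mean share went down. Its log2 fold change was -0.30 (SE 0.10, adjusted p = 0.107 by edgeR) and did not pass, though it passed under 4 of 11 alternatives and without EV 3 (adjusted p = 0.0408 by edgeR). The 13 miRNAs called higher gained 0.199 points together and the 7 called lower lost 0.0263 points, so the miRNAs past the threshold held little of the library. Wilson 95% intervals of a share were at most 0.0982 points wide and cover counting error only.

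**Figure D5:**
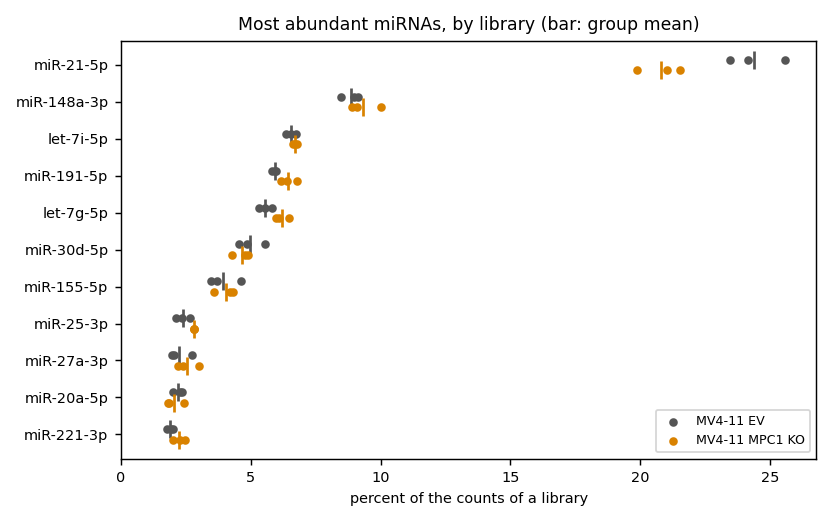
Percent of each library's counts (x axis) for the 11 miRNAs among the 10 most abundant in EV or MPC1 KO, with a point per library and a bar for the mean of each group. The MPC1 KO libraries lie below the EV libraries for miR-21-5p, at 19.9% to 21.5% against 23.4% to 25.6%.

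The 10 most abundant miRNAs took 66.9% ± 0.251 (SD, n = 3) of EV counts, against 65.6% ± 0.759 (SD, n = 3) of MPC1 KO counts (p = 0.1 in an exact two-sided permutation test, which is as low as 3 libraries against 3 can go). The let-7 family went from 13.5% ± 0.481 to 14.4% ± 0.225 (SD, n = 3 each, p = 0.1 in the same exact test). As shares of the TMM-scaled total these differences were -4.51 and 0.253 points in place of -1.32 and 0.938, so the size of both depended on the total they were taken of. Between 3.66% and 8.28% of counts would have to change miRNA to turn an EV library into an MPC1 KO library, against 4.003% to 5.73% between EV libraries and 3.56% to 5.44% between MPC1 KO libraries. The medians were 6.32% between the groups, 4.47% within EV and 3.94% within MPC1 KO. Of the 9 pairs between the groups, 7 were farther apart than any pair within a group, and both of the other 2 included EV 3. This separation rested largely on miR-21-5p. With miR-21-5p left out of the distance, only EV 1 with KO 2, at 6.71%, lay beyond the farthest pair within a group (EV 1 with EV 3, 5.37%). The other pairs between the groups were then at 2.44% to 4.95%.

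Lists of related miRNAs were described by their counts, beside the 3.03% of all 659 miRNAs that passed (1.97% higher, 1.06% lower), so that 0 or 1 called in a list was near the background. The median log2 fold change of the 634 tested miRNAs with over 3 counts in some MV4-11 library was -0.01. In the miR-17-92 cluster, which promotes growth in blood cancers, 0 of 12 miRNAs passed in edgeR and all 12 had log2 fold changes below 0 (median -0.21). With total counts 3 of the 12 were above 0, and with upper-quartile factors 1 passed as lower. The cluster's most abundant member, miR-20a-5p, was at -0.20 (SE 0.13). In the let-7 list 2 of 19 rose, both from MIRLET7E, and the median of the 18 with over 3 counts was 0.03, or -0.09 with upper-quartile factors. Of the miR-99, miR-100 and miR-125 list, 3 rose and 1 fell of 9 tested. In the miR-15/16 list 1 of 10 fell, miR-15b-3p. In the miR-106b-25, miR-106a-363, miR-221 with miR-222, miR-23 with miR-27 and miR-24, miR-29, miR-30 and HOX cluster lists and in the hypoxia and metabolism list, 0 passed in either direction, with medians from -0.12 to 0.21. miR-210-3p, the classic hypoxia miRNA, was at -0.04 (SE 0.13), with overlapping libraries. Of the 8 tested miR-181 members 1 rose.

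Marker lists of blood and other cells were read against the 3.03% of all 659 miRNAs that passed, at which 0 or 1 called in a list this short is near the background. The summed level of the myeloid and blood list (miR-223, miR-142, miR-155, miR-146a and miR-181a) was 73433 to 88151 CPM in EV and 75270 to 77813 CPM in MPC1 KO, and 1 of 10 passed, miR-181a-2-3p. Epithelial miRNAs summed to 340 to 386 CPM in EV and 420 to 464 CPM in MPC1 KO. All 6 tested, of 10 in the list, had log2 fold changes above 0, under each scaling. Of the 6, 5 had MPC1 KO libraries above the EV libraries, against 10.3% of all miRNAs, but 0 of 6 passed in edgeR (1 with total counts). They were not independent, as 4 came from the MIR200B cluster and 2 from MIR200C with MIR141. Members too low to test went both ways. miR-141-5p had 13, 8 and 6 counts in EV against 3, 9 and 6 in MPC1 KO, and miR-200b-5p had 3, 4 and 5 against 7, 6 and 19. Mesenchymal miRNAs summed to 643 to 742 CPM in EV and 535 to 615 CPM in MPC1 KO, and 0 of 5 passed. Endothelial miR-126 summed to 5542 to 6301 CPM in EV and 5220 to 5944 CPM in MPC1 KO. The summed erythroid list stayed at or under 16.04 CPM and the lymphoid, liver and neural lists at or under 9.58 CPM, and 0 of the 4, 1, 1 and 2 tested passed, nor did either of the 2 endothelial arms. The part of such cells in any result was not tested.

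Over all miRNAs counted, tested or not, the 44 made at several loci had a median of 4.5 counts, against 8.25 for those made at 1. Medians this low describe mostly rare miRNAs and do not compare the abundant ones. let-7a-5p, from 3 loci, had 158 to 391 counts, against 227636 to 461532 for let-7g-5p, from 1 locus, while miR-92a-3p, from 2 loci, had 12611 to 34136. How reads that match several places were counted is not given in the sources used here, and the part of this in the results was not tested. It touches miR-1-3p, with 2 loci, and let-7e-5p, which differs from let-7a-5p by a single base. It also touches the lists above, several of whose members are made at more than 1 locus. Some of these had few counts, as miR-181a-5p (1 to 8), miR-29b-3p (0 to 1), miR-24-3p (10 to 32) and miR-16-5p (53 to 130). Others had many, as miR-181b-5p (1101 to 4908).

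The effect of MPC1 KO in MV4-11 was also set against that in Molm-14, a second AML line with the FLT3 duplication, by edgeR's test of the difference of log2 fold changes. It differed for 44 of 659 miRNAs (6.68%), and for 12 of the 20 called in MV4-11. The 20 were chosen on libraries that also enter this test, so the share is a description. It was 7 without EV 2. The 8 without a difference past the threshold included miR-1-3p (MV4-11 minus Molm-14 -0.74, SE 0.63), miR-100-5p (0.14, SE 0.19), miR-618 (-0.89, SE 0.48) and miR-181a-2-3p (0.31, SE 0.13).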

How the data were processed

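Small RNA from EV and MPC1 KO cells (3 libraries each of MV4-11 and of Molm-14) had been prepared with the NEBNext small RNA kit. The authors deposited raw counts of reads per mature miRNA, without normalization. The submitters' processing notes list STAR 2.5.2, featureCounts 1.5.1 and GRCh38, with no role given. Groups came from the sample labels, and 0 columns were left unused.

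Counts were fitted in edgeR 4.0.16 (R 4.3.3) with filterByExpr (minimum count 10), TMM and a robust quasi-likelihood fit of 4 group means over all 12 libraries, so that the groups shared an estimate of the spread. The Benjamini-Hochberg adjustment ran over all features tested, with a threshold of 0.05. The SE was the log2 fold change over the root of F. The same fit was run on counts summed by seed and by hairpin cluster (10 kb, GENCODE v44), with TMM computed on the sums. Arm ratios, with 0.5 added to each count, were tested in limma 3.58.1. DESeq2 1.42.0 and limma-voom were alternatives, with other scalings, filters, blocks and left-out libraries.

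The match of miRNAs to hairpins was changed after first results had been seen, because matching by name had given single-locus arms several loci. The RefSeq table's own hairpin symbols were then used, with names as a fallback. The first match, and TMM factors of the miRNA table for the sums, were added as alternatives after seeing the data. List summaries leave out miRNAs with at most 3 counts in every MV4-11 library, a choice made, like that of the sequences to print, after values had been seen. The members and lists were chosen with earlier results of these data known.

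Named miRNAs were those past the threshold, their other arms, cluster and seed relatives, the 10 most abundant, the most changed above a mean of 100 counts, and list members. On simulated counts, the fit recovered 74.2% of 194 changed miRNAs among 627, and 5.88% of calls were unchanged miRNAs. Recovery was 42.6% at a log2 change of 0.5 and 98.6% at 2. A far larger share of miRNAs was changed there than was called in the data (3.03%), so these rates may overstate recovery here. Depth limits miRNAs with a few counts per library. The main fit did not pair the samples by replicate number.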

Additional observations from a re-analysis of the deposited data

Results flagged for a closer look

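For 12 of the 20 miRNAs past the threshold in MV4-11, edgeR's test of the difference of log2 fold changes found unlike effects in MV4-11 and Molm-14, against 44 of 659 miRNAs tested (6.68%). Values are the MV4-11 log2 fold change minus that of Molm-14. Both miR-99b arms (hsa-miR-99b-5p at 1.85 and hsa-miR-99b-3p at 1.78), both let-7e arms (hsa-let-7e-5p at 1.88 and hsa-let-7e-3p at 1.81) and hsa-miR-125a-5p at 1.81 had the largest positive differences. The miR-582 arms had the largest negative differences, hsa-miR-582-3p at -1.90 and hsa-miR-582-5p at -1.39. The others were hsa-miR-642a-3p at 0.76, hsa-miR-642a-5p at 0.74, hsa-miR-183-5p at -1.07, hsa-miR-503-5p at 0.43 and hsa-miR-28-3p at 0.60. For all 12 the difference was larger in size than the change within MV4-11. The excess was small for miR-642a-3p (0.763 against 0.760), miR-503-5p (0.43 against 0.40), let-7e-3p (1.81 against 1.71) and miR-642a-5p (0.74 against 0.61). The change within Molm-14 was not tested on its own for any of the 12.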

How the results depend on the processing

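Of the 20 miRNAs, 10 passed with each of the 12 libraries left out and under every alternative that tested them, and no named miRNA, family or cluster past a threshold reversed. DESeq2 on all libraries called 20 higher miRNAs, 11 lower families and 8 lower clusters. Total counts gave 20 higher miRNAs, 21 higher families and 4 lower families. Upper-quartile factors gave 15 lower miRNAs and 26 clusters, 3 higher and 23 lower. RLE factors gave 7 higher clusters. The name match, added after seeing the data, gave 10 clusters, 6 higher. On the TMM-scaled total the share of the 10 most abundant miRNAs changed by -4.51 points and that of let-7 by 0.253.

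With a library left out, the calls ran from 12 to 38 miRNAs (10 to 32 higher, 2 to 12 lower), 12 to 29 families (9 to 25 higher, 3 to 11 lower), 8 to 20 clusters (5 to 14 higher, 3 to 8 lower) and 7 to 11 miRNAs differing between the lines. The lowest numbers of miRNAs, families and clusters came without MV4-11 MPC1 KO replicate 1.

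With replicate number as a block, 22 miRNAs, 23 families (11 lower), 19 clusters (7 lower) and 0 arm ratios were called, and 23 miRNAs with the block within each cell line. Same-numbered EV and MPC1 KO libraries correlated at 0.119, -0.0757 and -0.157 in their deviations from the group means. Pairs of unlike number ran from -0.192 to 0.246 (EV 3 with KO 2), so libraries of the same number were not the most alike. Whether libraries were prepared together was not tested. Few counts limit miR-1-3p, miR-618 and let-7e-3p.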

Other observations

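The largest fitted fall was not past the threshold and came from a single library. hsa-miR-3607-3p held 44, 328 and 11 counts in the EV libraries and 23, 25 and 18 in the MPC1 KO libraries (log2 fold change -2.75, SE 1.14, adjusted p = 0.329 by edgeR). hsa-miR-3653-3p (18, 64 and 5 against 9, 12 and 14 counts) and hsa-miR-5100 (9, 42 and 3 against 5, 6 and 1 counts) were likewise highest in MV4-11 EV replicate 2 and did not pass. These 3 were chosen after their values were seen.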
